A study of Mus musculus with 2 samples.

Results

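The cytosolic ribosomal protein genes encode the proteins that, with ribosomal RNA, build the ribosome of the cytoplasm. They were taken as the protein-coding mouse genes of the GENCODE M21 annotation whose symbol begins with Rpl or Rps followed by a number, with the stalk genes Rplp0, Rplp1 and Rplp2 included and the kinases of ribosomal protein S6 left out. Of 21474 protein-coding genes, 91 met this rule. The core ribosome accounted for 76 of them, 46 of the large subunit with its 3 stalk proteins and 30 of the small subunit. The other 15 were 8 paralogs of core genes, 6 genes annotated as protein-coding under a pseudogene-style symbol, and Rps19bp1, which encodes a binding partner of ribosomal protein S19 and is no ribosomal protein.

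Whole urinary bladders came from a pair of pups of the mouse strain B6NCrl, taken at age 0 days after birth from the litter of 1 pregnant female. Each pup gave 1 total RNA library (n = 2 in a single group, newborn bladder), prepared from 10 ng of RNA above 200 nt, and the sex was not collected. No agent, genotype or age was contrasted, so the values describe levels in this tissue and the spread between littermates, and no test across animals was possible. The bladder markers used as a check were present in both libraries, with the smooth muscle actin Actg2 at 27630 TPM in pup 1 and 25651 TPM in pup 2 and the urothelial plaque protein Upk3a at 2051 and 2029 TPM.

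A cytosolic ribosome carries 1 copy of most of its proteins, so cells make these proteins in near-equal numbers, and the stalk of the large subunit, which recruits translation factors, is the main exception. Most ribosomal protein messenger RNAs start with a C followed by a run of pyrimidines, the terminal oligopyrimidine (TOP) motif, through which growth signals set their translation together. In mammals each core protein usually has a single functional gene with introns and many processed pseudogenes, which are intronless DNA copies of its messenger RNA.

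Levels are given as TPM, the authors' length-corrected share of all transcripts scaled to a fixed sum per library, which allows genes to be compared. All 76 core genes exceeded 30 TPM in both pups, and 86 of the 91 genes reached 1 TPM or more in both. In pup 1 the 91 genes together took 5.82% of all TPM and in pup 2 they took 6.01%, of which the core genes held 5.49% and 5.70%. The share of sequenced fragments was lower, at 2.27% and 2.51% of expected counts, since ribosomal protein transcripts are short and TPM divides by length. Total expected counts over mouse genes were 43653536 in pup 1 and 32564256 in pup 2.

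The core large subunit genes had a median of 597 TPM in pup 1 and 622 TPM in pup 2, and the core small subunit genes 639 and 687 TPM. The large-subunit median was thus 0.935 and 0.904 times the small-subunit median. The middle ranges of the subunits overlapped, with quartiles of 390 to 873 TPM for the large and 516 to 986 TPM for the small subunit in pup 1. The lower end differed more, since the 3 core genes with a mean under 100 TPM, Rpl5, Rpl27 and Rpl27a, all belonged to the large subunit. In the plot of levels by pup, 16 core genes had a mean of 1000 TPM or more, 8 in each subunit.

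**Figure D1:**
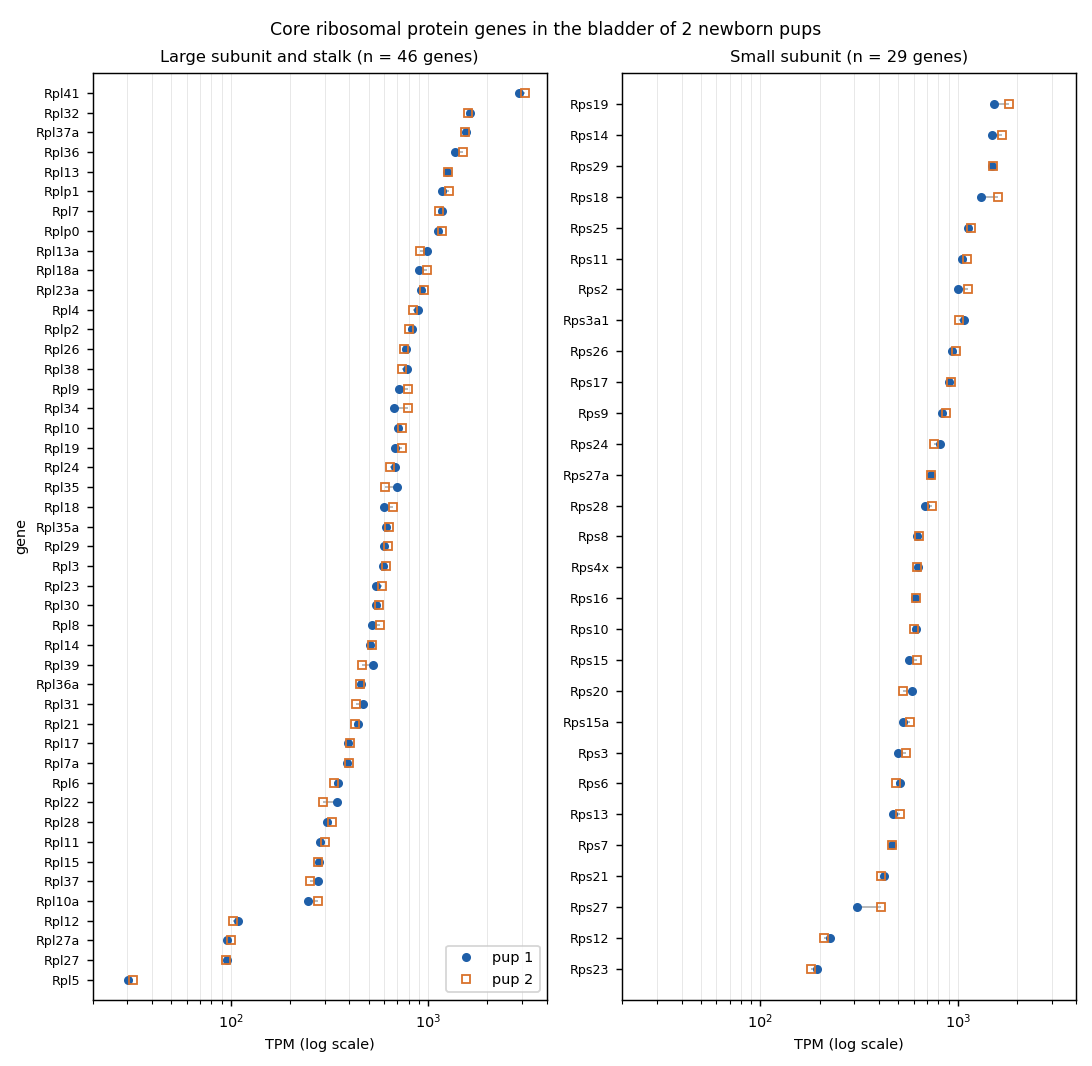
TPM on a log scale for each of the 46 core large-subunit genes (left) and 29 of the 30 core small-subunit genes (right), ordered by mean, with a filled circle for pup 1, an open square for pup 2 and a line between them. Most genes lie within 1 order of magnitude with the pups close together, and Rpl5, at 30.4 and 32.1 TPM, stands lowest.

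Rpl41 was the highest of all members. It encodes a very small basic protein of the large subunit, and its TPM was 2889 in pup 1 and 3115 in pup 2 (mean 3002 ± 159, SD, n = 2). It stood well apart in both pups, and the genes below it followed closely on each other. Its coding sequence, from the minus strand of chr10:128548114-128549305 (mm10), holds 78 bases for 25 amino acids and is shown because it is the shortest core reading frame and the most abundant core transcript.
Rpl41: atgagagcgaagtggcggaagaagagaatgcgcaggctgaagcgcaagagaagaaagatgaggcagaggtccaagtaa

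The next 9 members by mean were spread over both subunits. Rps19, the small-subunit protein whose human gene is mutated in Diamond-Blackfan anaemia, had 1531 TPM in pup 1 and 1830 TPM in pup 2. Rpl32 had 1632 and 1588 TPM, and Rps14, another small-subunit protein, 1491 and 1687 TPM. The order of these genes was not stable between the pups, because Rps19 was below Rpl32 and Rpl37a in pup 1 and above both in pup 2. Rpl37a, a zinc-finger protein of the large subunit, had 1554 and 1532 TPM, and Rps29, a zinc-finger protein of the small subunit, 1489 and 1509 TPM. Rps18 had 1318 and 1595 TPM and Rpl36 had 1365 and 1511 TPM. The means of neighbours in this order differed by less than the pups differed within Rps18. Rpl13 had 1247 and 1263 TPM and the acidic stalk protein Rplp1 had 1181 and 1274 TPM.

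The stalk genes were in the upper part of the large subunit. Rplp0, the base of the stalk, had 1124 TPM in pup 1 and 1183 TPM in pup 2, and Rplp2, which pairs with Rplp1 in dimers, had 827 and 806 TPM. The stalk median, which is the value of Rplp0, was 1124 and 1183 TPM, above the upper quartile of the core large-subunit genes in both pups. Rplp2 lay below that quartile, which was 873 and 830 TPM. Over the 76 core genes the Spearman correlation of TPM between the pups was 0.988, as a description of genes that share both libraries and an annotation.

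For several of the lowest core genes most reads were listed under a near-identical copy. Rpl5, which carries the 5S ribosomal RNA into the large subunit together with Rpl11, had 30.4 TPM in pup 1 and 32.1 TPM in pup 2. A processed pseudogene, Gm15500 (chr7:114705217-114706235, mm10), matched the 894 bases of the Rpl5 coding sequence at 100% identity and was listed with 517 and 493 TPM. Rpl5 itself held 1029 and 964 expected counts, which was 6.74% and 8.15% of the counts of the gene and its copies together. Copies were defined as annotated transcripts that match a core coding sequence in sense direction at 90% identity or more over at least 80% of its length, and the paralogs described further on were not counted as copies, apart from Rps27rt.

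Under this definition 962 copies of core genes were annotated, and 678 of them had entries in the deposited tables. The copies held 16.6% of the counts of core genes and copies in pup 1 and 16.8% in pup 2. This load was uneven. In both pups 49 of 76 core genes held 90% or more of their family's counts, 18 held between 50% and 90% in at least 1 pup, and 9 held under 50%. The 9 were Rpl5, Rps27, Rpl27, Rps23, Rpl27a, Rpl12, Rpl15, Rpl28 and Rps12, and the same genes met the limit in each pup.

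**Figure D2:**
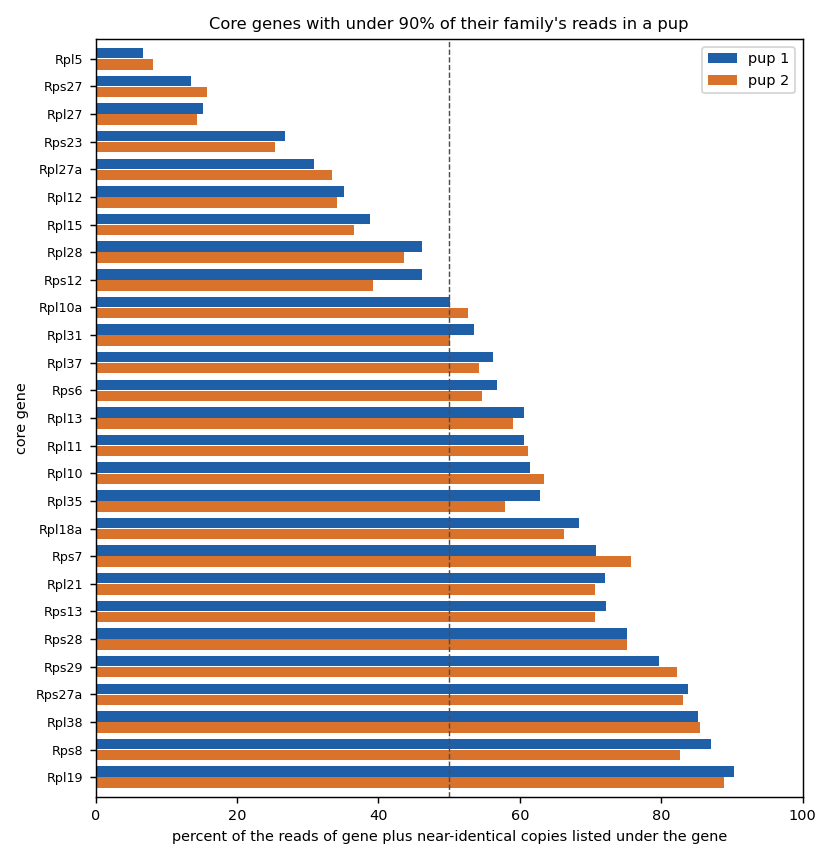
Percent of the expected counts of a core gene and its near-identical copies that were listed under the core gene itself, for the 27 core genes under 90% in either pup, with blue bars for pup 1 and orange bars for pup 2. The dashed line marks 50%, and the 9 genes at the top lie below it in both pups.

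Rps27, a zinc-finger protein of the small subunit, shows the extreme case among the small-subunit genes. Its own entry held 13.4% of the family's counts in pup 1 and 15.7% in pup 2, at 311 and 410 TPM. Its retrogene Rps27rt (chr9:114982366-114982739) has a coding sequence identical over all 255 bases and was listed with 1153 and 1269 TPM. In the deposited annotation the Rps27 entry is 255 nt long, the coding sequence alone, and the Rps27rt entry is 370 nt long. The Rps27 entry thus holds no untranslated bases.

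The other core genes with a minority of the counts had processed pseudogenes as their main copies. Rpl27 held 15.2% and 14.3% of its family's counts, at 96.4 and 94.4 TPM, while the pseudogene Rpl27-ps3 was listed with 516 and 511 TPM. Rps23, a protein of the decoding centre, held 26.8% and 25.4%, at 195 and 181 TPM, against 1059 and 1063 TPM for Rps23-ps1 (chr3:37714740-37715164). The gap between gene and copy exceeded the gap between the pups in each of these families. Rpl27a held 30.8% and 33.4%, at 96.4 and 101 TPM, against 601 and 568 TPM for Gm7536 (chr3:24333068-24333511). Rpl12, a protein at the base of the stalk, held 35.2% and 34.1%, at 109 and 103 TPM, against 322 and 327 TPM for Gm10275. Rpl15 held 38.9% and 36.5%, at 281 and 277 TPM, against 805 and 880 TPM for Rpl15-ps3. All of these copies matched their parent at 100% identity over the aligned bases.

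Of the 9 genes under 50%, Rpl28 and Rps12 lay nearest to it in pup 1. Rpl28 held 46.1% and 43.6% of its family's counts, with 309 and 328 TPM against 497 and 533 TPM for Rpl28-ps1. Rps12 held 46.1% and 39.2%, with 226 and 210 TPM against 256 and 359 TPM for Rps12l1, the largest difference in this share between the pups. Just above 50% stood Rpl10a, at 50.2% and 52.7%, and Rpl31, at 53.6% and 50.1%. Rpl10a had 246 and 277 TPM and was 1 of 3 genes among the 10 lowest of the core that held over 50%. Of the others, Rpl37 had 276 and 252 TPM with 56.3% and 54.2% of its family's counts, and Rpl11 had 285 and 300 TPM with 60.6% and 61.1%.

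The 10 core genes with the lowest mean TPM all held under 65% of their family's counts in both pups, with a median of 37.0% and 35.3%. The other 66 core genes had a median of 97.1% in each pup. Low level and low share were not the same thing, since Rpl13 had 1247 TPM in pup 1 with only 60.5% of its family's counts, and its pseudogene Gm12918 was listed with 1026 TPM. Over all 76 core genes the Spearman correlation of TPM with the share was 0.45 in pup 1 and 0.48 in pup 2, as a description across genes that share each library. A gene's own counts enter both its TPM and its share. Part of this correlation, and of the contrast between the 10 lowest and the other 66 genes, was therefore fixed in advance.

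When the counts of all copies were added to their core gene and expressed at the core gene's length, the range of core levels became narrower. Rpl5 went from 30.4 to 450 TPM in pup 1 and from 32.1 to 394 TPM in pup 2. The minimum over core genes was then 311 TPM in pup 1, for Rpl12, and 293 TPM in pup 2, for Rpl22. The highest over the lowest fell from 95.2-fold to 10.0-fold and from 97.0-fold to 11.4-fold. The SD of log2 TPM over the core genes was 1.04 and 1.06 before and 0.68 and 0.71 after. This addition can raise a gene and cannot lower it, and it counts every read of a transcribed copy as the parent's. The median of the large subunit became 674 and 717 TPM and that of the small subunit 832 and 827 TPM. How many of the copies' reads came from the copies' own transcripts was not tested.

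The copies ranged from silent to abundant in the tables. Of 678 listed copies, 207 had 0 counts in both pups, 134 reached 1 TPM in both, and 30 had a mean of 100 TPM or more. Of these 30, 26 were annotated as pseudogenes of some kind, all 30 were at least 99% identical to the parent, and 14 had an entry exactly as long as the parent's coding sequence. Rpl21 had the most annotated copies, 77, and held 72.1% and 70.6% of its family's counts. Among these copies BC004004, a longer protein-coding gene, had 2688 and 2163 counts with a posterior SD, described below, of 0. The share of Rpl21 thus does not measure only reads that were uncertain between near-identical sequences. Wdr89 under Rplp2 and Gins1 under Rpl41 are other protein-coding genes that the definition counted as copies. Genes such as Rpl8, Rps9 and Rps3 had no copy in the tables, and the copies of Rpl23 had 0 counts.

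The deposited files also give a posterior SD for each count, a measure of how uncertain the authors' estimator was in dividing reads. It was under 5% of the count in both pups for 75 of 76 core genes, with Rps27 at 7.55% and 7.07% as the exception. For Rpl5 it was 4.34% and 4.32%, and for Rpl27 3.16% and 3.58%. Of all members 4 reached 10% in either pup, all outside the core, and 3 of these had at least 100 counts on average. Among all 12733 genes at that depth 164 did so, or 1.29%. Those 3 were Rpl10-ps3, Rps12-ps3 and Rpl9-ps6, and the fourth was Rpl36a-ps1, at 18.0% in pup 1.

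The 6 genes with pseudogene-style symbols were low compared with the core. Rpl10-ps3 led them, with 166 TPM in pup 1 and 244 TPM in pup 2 and a posterior SD of 13.6% and 8.99%. Rps12-ps3 had 56.2 and 33.4 TPM, and Rpl9-ps6 had 26.3 and 30.2 TPM. Rpl36a-ps1 had 28.4 expected counts in pup 1 and 16.1 in pup 2, or 4.27 and 3.04 TPM. Rpl9-ps1 and Rpl36-ps4 were listed with 0 counts, which allows up to 0.210 and 0.263 TPM for Rpl9-ps1 and 0.393 and 0.492 TPM for Rpl36-ps4, where 3 counts are the limit and only counting error is covered. Rps19bp1 had 27.6 and 26.6 TPM.

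Paralogs replace or accompany a core protein in some tissues, and their levels in the newborn bladder fell into separate classes. Rpl3l, the form known from heart and skeletal muscle, had 4 expected counts in pup 1 and 3 in pup 2, or 0.17 and 0.13 TPM, against 594 and 613 TPM for Rpl3. Its level was 0.0286% and 0.0212% of the Rpl3 level. Of 10 striated muscle genes 7 reached 1 TPM in both pups, and their levels were spread widely. By mean TPM 1 of the 10 was at 1000 or more and 3 were between 100 and 1000. The skeletal actin Acta1 had 7283 and 6668 TPM and creatine kinase Ckm 656 and 600 TPM, whereas the myosin light chain Mylpf had 2.42 and 1.64 TPM, the embryonic myosin Myh3 0.16 and 0.05 TPM, and the myogenic factor Myog was listed at 0.

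The testis-associated paralogs were also near 0. Rpl39l, described in male germ cells, had 13 and 9 expected counts, or 0.83 and 0.58 TPM, against 525 and 463 TPM for Rpl39 on the X chromosome. Rpl10l, an intronless copy of the X-linked Rpl10 that serves male meiosis, had 0 counts in both pups, with upper limits of 0.108 and 0.136 TPM, against 705 and 742 TPM for Rpl10. Of the 8 male germ cell markers 1, Ddx4, reached 1 TPM in both pups, at 1.80 and 1.44 TPM. The coding sequences of Rpl39 and Rpl39l, from chrX:37082520-37085402 and chr16:10170226-10174911 (mm10 gene spans), are shown because the pair is similar in sequence and far apart in level. Capitals mark the 23 of 156 bases that differ, which leaves 85.3% identity over the coding sequence.
Rpl39: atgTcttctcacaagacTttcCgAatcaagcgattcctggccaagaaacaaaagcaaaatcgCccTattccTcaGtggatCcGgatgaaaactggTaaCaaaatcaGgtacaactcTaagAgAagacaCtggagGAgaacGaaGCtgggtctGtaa
Rpl39l: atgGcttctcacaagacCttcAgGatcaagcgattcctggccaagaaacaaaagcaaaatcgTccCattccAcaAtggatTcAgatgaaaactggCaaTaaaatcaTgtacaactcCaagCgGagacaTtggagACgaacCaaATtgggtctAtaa

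Of the paralog transcripts, 4 stood within a few fold of their partner or above it. Rpl22l1, a paralog of the RNA-binding protein Rpl22, had 345 TPM in pup 1 and 267 TPM in pup 2, against 347 and 292 TPM for Rpl22, and its coding sequence is 68.2% identical. The ratio of the paralog to its partner was 0.992 in pup 1 and 0.912 in pup 2. Rpl36al, a paralog of the X-linked Rpl36a with 87.9% coding identity, had 622 and 558 TPM, against 459 and 455 TPM for Rpl36a. Rpl36al was therefore 1.35 and 1.23 times as abundant as Rpl36a, and the pups did not overlap between the genes.

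Rps27l, known as a target of the tumour suppressor p53, had 774 and 680 TPM, which was 2.49 and 1.66 times the entry of Rps27. That ratio rests on how the Rps27 reads were divided. With the counts of Rps27rt and the other copies added to Rps27, the mean ratio fell from 2.08 to 0.297. The added counts were expressed at the 255 nt of the Rps27 entry, although most came from the 370 nt Rps27rt entry. The size of the fall therefore depends on this choice of length. Rps27rt alone was listed with 1153 and 1269 TPM, above Rps27l in both pups. Rps27l itself had a posterior SD of 0.00946% and 0.00491%, and its coding sequence is 76.1% identical to that of Rps27. The gene spans are chr3:90212522-90213651 for Rps27 and chr9:66946086-66949516 for Rps27l. Both coding sequences have 255 bases, with capitals at the 61 that differ, and they are shown because the Rps27 line is also the sequence of Rps27rt, whereas Rps27l differs along its whole length.
Rps27: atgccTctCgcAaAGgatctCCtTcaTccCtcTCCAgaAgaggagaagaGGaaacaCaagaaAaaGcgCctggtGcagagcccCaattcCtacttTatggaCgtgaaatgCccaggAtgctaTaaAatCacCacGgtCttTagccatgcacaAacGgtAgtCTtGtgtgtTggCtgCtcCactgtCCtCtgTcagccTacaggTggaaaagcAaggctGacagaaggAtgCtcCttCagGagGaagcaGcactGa
Rps27l: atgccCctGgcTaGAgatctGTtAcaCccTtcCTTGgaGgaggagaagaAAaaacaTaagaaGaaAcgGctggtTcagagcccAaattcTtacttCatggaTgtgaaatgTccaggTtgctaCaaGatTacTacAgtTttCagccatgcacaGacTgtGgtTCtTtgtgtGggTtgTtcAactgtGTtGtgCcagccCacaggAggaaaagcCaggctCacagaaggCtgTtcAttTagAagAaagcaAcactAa

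Rpl7l1, the most distant paralog with 54.0% coding identity, had 63.2 and 57.4 TPM, against 1176 and 1131 TPM for Rpl7. It stood at 5.38% and 5.07% of Rpl7, between the silent and the abundant paralogs. By expected counts, which are not corrected for its longer transcript, the ratio was 0.203 and 0.192. The order of the 8 paralogs by mean TPM, from Rps27rt down through Rps27l, Rpl36al, Rpl22l1, Rpl7l1, Rpl39l and Rpl3l to Rpl10l, was the same in both pups.

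**Figure D3:**
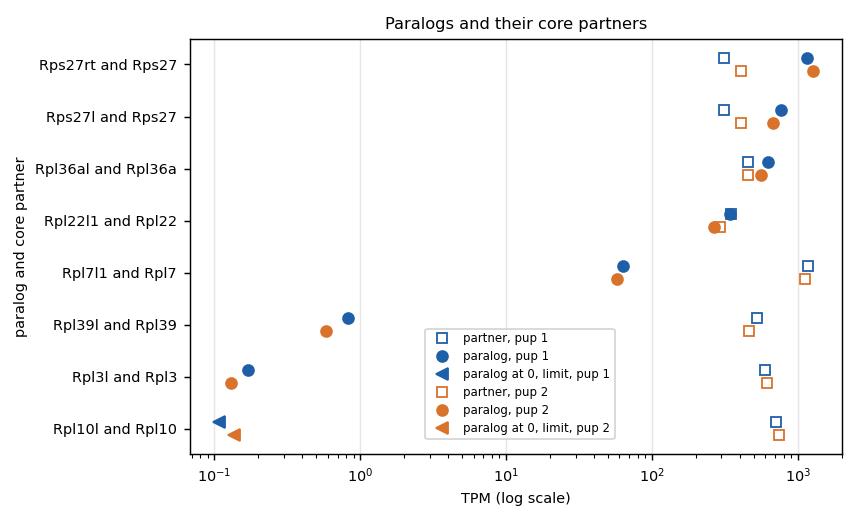
TPM on a log scale for 8 paralogs (filled circles) and their core partners (open squares) in pup 1 (blue) and pup 2 (orange). Triangles mark the upper limits of 0.108 and 0.136 TPM for Rpl10l, which had 0 counts, and Rpl39l and Rpl3l lie below 1 TPM while 4 paralogs lie above 200 TPM.

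The transcript tables divide each gene among its annotated splice forms. Of the 85 members with a mean of at least 10 TPM, 51 had 1 leading transcript with 90% or more of the gene's TPM in both pups, and the median leading share was 97.4% and 97.2%. The leading transcript held under 50% in at least 1 pup in 7 members, which were Rpl13a, Rpl5, Rpl22l1, Rpl38, Rps18, Rpl28 and Rpl27. Rpl38, whose loss alters patterning of the mouse skeleton, was divided between Rpl38-204 at 47.9% and 49.4% and Rpl38-201 at 41.9% and 43.0%, which are both coding. Rpl27 was likewise divided between the coding forms Rpl27-202, at 51.2% and 49.2%, and Rpl27-201, at 43.6% and 43.4%.

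In Rps18, Rpl5 and Rpl22l1 a coding form competed with a form annotated as non-coding. Rps18 had 55.3% and 48.0% on the coding Rps18-201 and 42.6% and 50.2% on the processed transcript Rps18-209, so the leading form changed between the pups. Rpl5 changed too: the retained-intron form Rpl5-205 had 48.3% and 41.6% and the coding Rpl5-201 had 32.1% and 42.5%, at a gene level of about 30 TPM. Rpl22l1 had 46.5% and 56.5% on the coding Rpl22l1-206 and 40.6% and 31.6% on the processed transcript Rpl22l1-209. Rpl28 had 58.5% and 48.8% on Rpl28-201 and 29.6% and 40.9% on the shorter coding form Rpl28-203. The first form of Rpl13a, at 45.5% and 39.7%, was not matched to GENCODE M21. In Rpl39l, with 13 and 9 counts, the leading form also differed between pups.

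Summed over the core genes, 92.8% of counts in pup 1 and 92.9% in pup 2 were on protein-coding forms, beside 94.8% and 94.3% over all protein-coding genes. Processed transcripts took 3.23% and 3.34% in the core genes, beside 1.22% and 1.25% over all. Retained introns took 2.22% and 2.18% against 2.31% and 2.77%, and forms marked for nonsense-mediated decay 0.469% and 0.417% against 1.29% and 1.28%. Single genes differed widely, and those that follow were picked after their values were seen. Rpl35 had 8.77% and 10.5% of its counts on coding forms, with most on the processed transcript Rpl35-203, and Rpl23 had 39.6% and 41.6%, with most on Rpl23-204. Rps20 had 69.2% and 68.3% on the retained-intron form Rps20-201, and Rpl12 had 52.5% and 46.9% on a form marked for decay. The annotated kind of a form was not tested against the reads.

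**Figure D4:**
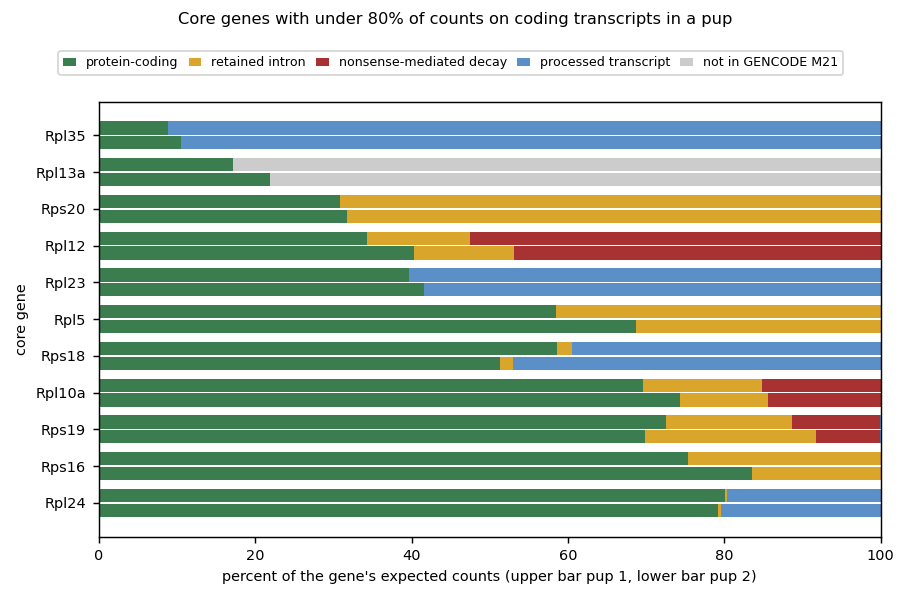
Percent of a gene's expected counts on each annotated kind of transcript, for the 11 core genes under 80% on coding forms in either pup, with pup 1 as the upper and pup 2 as the lower bar of each pair. Rpl35, Rpl23 and Rps18 have large shares on processed transcripts, Rps20 on a retained intron and Rpl12 on a form marked for nonsense-mediated decay, in both pups.

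Between the littermates, ribosomal protein genes differed little and were mostly somewhat higher in pup 2. Counts were brought to a common scale with TMM factors (trimmed mean of M-values) and pup 2 was divided by pup 1 on the log2 scale for genes with a mean of at least 100 counts. The median was 0.11 over 85 members, 0.11 over the core large and 0.13 over the core small subunit, beside -0.02 over all 12733 genes. The ratio was above 0 in 69 of 85 members, where 45.2% of all genes were above 0. This split depends on the scale. By the ratio of TPM 50 of 85 members were higher in pup 2, or 58.8%, beside 32.4% of all genes, and the medians were 0.04 and -0.10.

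The differences were small in size. No member was 2-fold apart, beside 1.98% of all genes and 22 of 2339 genes with a mean of at least 3000 counts. With shares this low, 0 of 85 members is close to the background. At 1.2-fold or more 8 members were higher in pup 2, or 9.41%. This lies below the 11.4% of all genes and above the share of those 2339 genes, of which 109 were higher. In the other direction 1 member was lower, or 1.18%, beside 12% of all genes and 256 of the 2339. The SD of the log2 ratio was 0.10 over the core large and 0.13 over the core small subunit, against 0.37 over all genes. Over genes with a mean of at least 3000 counts, closer in depth to the members, it was 0.28 and the median ratio was -0.06.

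The largest ratio toward pup 2 belonged to Rpl10-ps3, at 0.64 with a 95% counting interval of 0.57 to 0.71. Rps27 followed at 0.48 (0.38 to 0.58), and with its copies' counts added the ratio was 0.26. Both genes have near-identical relatives with counts in the tables. Rpl10-ps1, which like Rpl10-ps3 matched the Rpl10 coding sequence at 100% identity, had a ratio of -0.44, and Rpl10 itself had 0.16. Rps18 had a ratio of 0.34 (0.31 to 0.37) and Rpl5 of 0.31 (0.18 to 0.44), and the latter became 0.04 with the copies' counts added.

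Toward pup 1, Rps12-ps3 had the largest ratio, at -0.67 (-0.87 to -0.48). Rpl22l1 was next at -0.26 (-0.33 to -0.19), then Rps27l at -0.11 (-0.15 to -0.06), Rpl39 at -0.10 (-0.15 to -0.05) and Rpl22 at -0.10 (-0.16 to -0.04). Of the 5 lowest, 3 were thus outside the core, and both Rpl22 and its paralog were lower in pup 2. Of the 5 paralogs with enough counts 4 were lower in pup 2, Rps27rt being the exception, beside 6977 of all 12733 genes. The interval of 1 of these 4, Rpl7l1, included 0 (-0.12 to 0.005). Rps12-ps3 and the copy Rps12l1 both matched the Rps12 coding sequence at 100% identity, and Rps12l1 had a ratio of 0.57 and Rps12 of -0.03. The exact binomial intervals cover counting error only. They say nothing of the spread between animals or of how reads were divided among near-identical entries, and the part of that division was not tested.

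**Figure D5:**
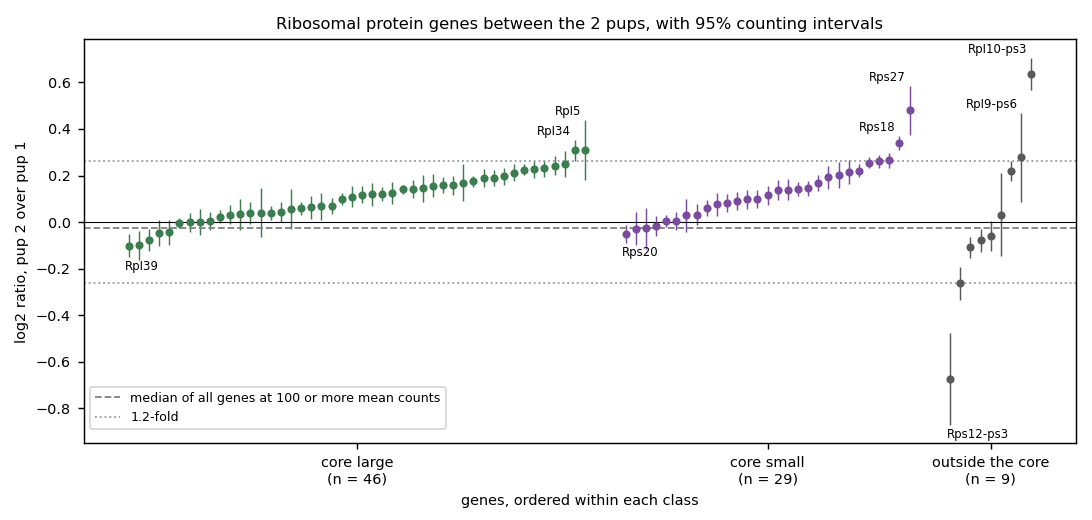
Log2 ratio of pup 2 over pup 1 for 84 of the 85 members with a mean of at least 100 counts, ordered within each class, with 95% counting intervals as bars, a dashed line at the median of all 12733 genes and dotted lines at 1.2-fold. Most core genes lie between 0 and 0.26, and the widest values belong to the genes outside the core.

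Other cell types moved between the same libraries by more than the ribosomal protein genes. The 6 of 9 erythroid markers with at least 100 mean counts were all higher in pup 2, with a median log2 ratio of 1.51, and the list summed to 21722 and 59107 TPM. The globin gene Hba-a2 was at 9397 TPM in pup 1 against 26610 in pup 2, and Hbb-bs at 6584 against 16224. All 10 macrophage markers were higher in pup 2, with a median of 1.18, and summed to 607 and 1955 TPM, led by the lysozyme gene Lyz2 at 216 and 1106 TPM. All 13 proliferation genes were lower in pup 2, with a median of -0.46, summing to 552 and 413 TPM, with Cdk1 at 107 and 81.3 TPM and Pcna at 91.8 and 72.2 TPM. The 6 of 10 striated muscle genes with enough counts had a median of -0.30. No defining marker of the erythroid, macrophage or proliferation lists was at 0 in both pups. Their part in the ratios of the ribosomal protein genes was not tested, and fewer cells of a type and less RNA per cell cannot be told apart in whole tissue.

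Other genes of translation and ribosome formation were set beside these values. The 4 companions outside the symbol rule were at core levels: of those reported here, Rack1 had 452 and 482 TPM, Rpsa had 429 and 499 TPM, and Fau had 411 and 430 TPM. All 4 had a higher scaled count in pup 2, with a median log2 ratio of 0.18. The 16 other genes of translation with known TOP messenger RNAs had a median of 241 and 234 TPM and a median ratio of 0.02, with 10 of 16 above 0. The elongation factor Eef1a1 led them at 3069 and 3014 TPM, close to Rpl41, and Tpt1 followed at 1086 and 1033 TPM.

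The mitochondrial ribosome was an order of magnitude below the cytosolic one. Its 77 protein genes had a median of 68.7 and 67.6 TPM and took 0.673% and 0.648% of TPM, with Mrpl20 the highest at 387 and 408 TPM. Their median ratio was 0.02, with 44 of 77 higher in pup 2. The SD of log2 TPM among them was 1.10 in each pup, similar to the core cytosolic genes before copies were added. The 24 ribosome assembly factors had a median of 35.0 and 32.4 TPM and a median ratio of 0.06, with 15 higher in pup 2, and the nucleolar protein Ncl led at 220 and 177 TPM. The 9 genes of ribosomal RNA transcription had a median of 33.9 and 31.0 TPM and 3 of 9 were higher in pup 2, with Polr1d at 107 and 110 TPM and Myc at 43.6 and 42.7 TPM.

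Features that the symbol rule did not use were described for the core genes. These genes lay on 19 chromosomes, with 14 on chromosome 7 and 4 on the X chromosome. No share of all genes per chromosome was set beside these counts. Of 76 core genes 29 held an annotated small nucleolar RNA (snoRNA) gene, 55 snoRNAs in all, or 38.2% of core genes, where 1.89% of 12161 protein-coding genes with at least 100 mean counts did. SnoRNAs guide chemical modification of ribosomal RNA and are commonly cut from introns. Rpl4 held the most with 5, and Rpl13a held 4, Snord32a, Snord33, Snord34 and Snord35a. Of the 55 snoRNAs 41 had 0 counts in both pups, in libraries of RNA above 200 nt, and their median length was 87 nt. The deposited effective length is 99 nt below the transcript length, so an entry of that median length has none left. A 0 at such an entry therefore does not describe the level of the snoRNA.

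The RefSeq start sites (GRCm38.p6) gave 66 windows of 300 bases for 56 core genes. The annotated first base was a C followed without break to at least 5 pyrimidines in all in 13 of 66 windows, or 19.7%, where 2.51% of 32851 windows of all genes met this. A run of 8 or more pyrimidines within 40 bases of the start on either side was found in 48 windows, or 72.7%, beside 29.3% of all windows. Annotated starts can be some bases away from those used in the bladder, and the difference was not tested. The windows of 5 genes are shown from 40 bases before the start through the first 20 transcribed bases, with the pyrimidine run at the start in capitals, because this run is the sequence feature the family is known for. Their genes have means of 1457, 759, 654, 609 and 279 TPM in the order given. These are 5 of the 13 windows, with runs of 8 to 13 pyrimidines, and the shortest run among the 13 has 5.
Rps18, chr17:33955646-33955705, minus strand: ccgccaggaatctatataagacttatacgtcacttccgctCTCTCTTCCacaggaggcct
Rpl38, chr11:114668540-114668599, plus strand: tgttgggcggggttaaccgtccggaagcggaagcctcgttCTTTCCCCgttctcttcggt
Rpl35, chr2:39005112-39005171, minus strand: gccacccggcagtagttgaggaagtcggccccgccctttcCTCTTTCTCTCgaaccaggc
Rps10, chr17:27635225-27635284, minus strand: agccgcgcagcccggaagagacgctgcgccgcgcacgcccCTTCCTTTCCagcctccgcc
Rpl15, chr14:18270967-18271026, minus strand: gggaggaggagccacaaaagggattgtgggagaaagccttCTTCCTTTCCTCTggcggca

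Motifs were searched on both strands of the same 300 bases, 250 before the start and 50 from it. CCGGAAG, as bound by ETS factors such as GABP, was found in 24 of 66 core windows, or 36.4%, beside 8.86% of all windows. AAGATGG, as bound by YY1, was in 11 windows, or 16.7%, beside 6.34%, and 1 stretch can hold both motifs since the first ends with the letters that open the second. GGGCGG, as bound by Sp1, was in 40 windows, or 60.6%, beside 35.7%. TATAAA was in 6 windows, or 9.09%, beside 13.6%. In the windows shown, that of Rpl38 holds CCGGAAG before its run of 8 pyrimidines, and that of Rps10 holds it as well. The windows of all genes, here and for the pyrimidine runs, were not limited to genes with counts in the bladder, unlike the snoRNA comparison. A match is a description of letters and not of binding.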

How the data were processed

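Total RNA-seq values of both libraries were used as the authors deposited them, in the layout of the RSEM estimator, on mm10 with GENCODE M4 per the listing that accompanies the files. The sources used here name no aligner, RSEM version or strand setting. Expected counts were deposited without normalisation, and the authors' estimator divided multi-mapped reads among their targets. The deposited TPM values divide by an effective length 99 nt below the transcript length, which raises short genes. The posterior SD of a count is a deposited score in counts, and the isoform percent is the authors' percent of a gene's TPM.

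Of 43346 mouse genes 42462 were matched by identifier to GENCODE M21. Expected counts were rounded and scaled with TMM (edgeR 4.0.16, R 4.3.3; DESeq2 1.42.0 size factors as an alternative), and no count test was run. Coding sequences of core genes were compared with all M21 transcripts by blastn 2.17.0 at an E-value limit of 1e-05. Paralog pairs were aligned globally by their nucleotides, since no protein sequences were used here. The ratio step was tested on simulated data. Without strand, overlapping and antisense genes cannot be separated. The 2 libraries come from separate pups.

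The members, gene lists, bladder markers and settings were chosen with earlier results of these data known. Named were the 10 highest members, the 10 lowest core genes, all members outside the core, partners of paralogs, the 5 highest and 5 lowest ratios, members with a posterior SD of 10% or more, those with a divided leading transcript, the companions, and up to 4 genes of each comparison list. Other genes, such as Rpl4, Rpl13a, Rpl21, Rpl31, Rpl35, Rpl23 and Rps20 in the copy, transcript and snoRNA results and Mylpf, Myh3 and Myog among the muscle genes, were chosen with their values in view. The copy search and its alternatives were added after seeing the data. A few items that the rule would name are not reported here.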

Additional observations from a re-analysis of the deposited data

How the results depend on the processing

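Of 122 alternative values for 21 results, 84 stayed within the limits set, 37 moved and 1 reversed. The reversed one was the Rps27l over Rps27 ratio, 2.08, which was 0.297 with the copies' reads, Rps27rt included, added at the Rps27 entry's length. The 91 genes' share of TPM, 5.91% as the mean of the pups, was 5.55% with full transcript lengths, 5.59% for core genes alone and 2.39% as a share of counts, and it was 5.82% to 6.01% with either pup left out. For all Rpl genes the share was 3.35%, against 3.28% with posterior mean TPM, 3.17% with full lengths and 3.23% for the core. For all Rps genes it was 2.56%, against 2.37% and 2.36% for the last 2 of these. The median of all Rpl genes, 541 TPM, was 517 with full lengths, 609 for the core and 695 for the core with copies' reads added, and that of all Rps genes, 649 TPM, was 623 with full lengths and 829 for the core with copies' reads added. The median log2 ratio over members, 0.11, was 0.13 by total counts, 0.037 by TPM, 0.10 with a minimum of 20 counts or none, and 0.12 for the core with or without copies' reads. For Rpl genes (0.11) it was 0.13 by total counts, 0.037 by TPM and 0.084 without a minimum, and for Rps genes (0.11) 0.13 by total counts and for the core, 0.037 by TPM and 0.14 for the core with copies' reads. Members 1.2-fold apart numbered 9, or 6 for the core alone and 5 for the core with copies' reads added, and members with a posterior SD of 10% or more numbered 4, or 1 at 20%. Members with a divided leading transcript numbered 7, and 4 to 6 with 1 pup left out, with 4 when pup 2 was left out. Copies' share of counts stayed at 16.5% to 16.8% for stricter copies or with either pup left out, and 9 core genes stayed under 50%. No paired analysis was possible because the 2 pups form 1 group.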
